A study of Mus musculus with 4 samples.

Results

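The 9 genes described here, *Sox7*, *Sox17*, *Sox18*, *Erg*, *Fli1*, *Foxo1*, *Foxf2*, *Foxq1* and *Nr2f2*, encode transcription factors that give endothelial cells (ECs) their identity or their place along the vessel tree. They were chosen by symbol, and all 9 were found among the 32286 genes of the count tables. Vascular fragments were pulled from the cerebra of 4 mice aged 3 months with PECAM1 beads, dissociated and sequenced as single cells (10x Genomics, 3′ ends), with 1 library per mouse. The 2 genotypes compared were *Angpt2*-WT (WT1, a female, and WT2, a male) and *Angpt2*-KO (KO1, a female, and KO2, a male). The KO mice carried a constitutive deletion of *Angpt2* exon 4, made by crossing floxed mice with *Pgk*-Cre mice on a C57BL6/J background, and both genotypes came from heterozygous breedings. The deletion was constitutive and so not limited to ECs. ANGPT2 is a secreted ligand of the TEK receptor on ECs.

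SOX7, SOX17 and SOX18 form the SOXF group, whose members act together in vessel formation, with SOX17 best known for arterial fate. ERG and FLI1 are ETS factors that keep the pan-endothelial program active. FOXO1 restrains endothelial growth and metabolism and is held out of the nucleus by AKT, which TEK signaling activates. FOXF2 and FOXQ1 are forkhead factors enriched in brain ECs, and loss of FOXF2 impairs the blood-brain barrier. NR2F2 (COUP-TFII) gives veins their identity and counteracts arterial Notch signaling.

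A barcode counted as a cell if over 500 genes were detected and mitochondrial genes held less than 10% of its UMIs (unique molecular identifiers, each marking 1 captured molecule), as was so for 17999 of 19809 barcodes. Of these, 14151 were ECs of the brain, and 811 were a separate fenestrated-like endothelium led by *Plvap*, a component of the diaphragms of fenestrated vessels, which was at 2796 to 3349 CPM there and at 1.59 to 6.74 CPM in the other ECs. The depth was 31753395 to 42903731 UMIs per library. From 0 to 13 barcodes were shared by any 2 libraries. Clusters of ECs with arterial-like, capillary-like, venous-like and angiogenic capillary-like markers are called arterial, capillary, venous and angiogenic for short, and cells with at least 1 UMI of *Apln*, a ligand made by sprouting tip cells, form a class of their own and were left out of these 4. The capillary cluster was led by *Gm26917*, *Lars2* and *Gm42418* and was the shallowest of the EC clusters, with a median of 3208 UMIs per cell. Its 10 leading genes also held *Unc5b*. At resolution 0.6, a capillary cluster of 1922 cells was led by *Unc5b*, the arterial marker *Sema3g* and *Efnb2*. Another 2 clusters, of 2939 and 2780 ECs, did not meet the rule for a zone name and were left unnamed. The cluster of 2780 ECs scored highest for venous markers (mean standardized score 0.393), but none of them was among its leading genes. None of the 9 genes took part in the clustering of ECs into zones. They were not left out of the clustering of all cells, which set fenestrated endothelium apart from the other ECs. At least 1 *Apln* UMI was seen in 1.18% and 1.36% of ECs in WT1 and WT2 and in 18.7% and 7.43% in KO1 and KO2. Microglia-like cells, which should lack *Apln*, had one in 0.481% and 0.621% of cells in the WT mice (1 cell in each) and 4.15% and 1.85% in the KO mice, at median depths of 3490 to 6265 UMIs against 3886 to 7505 in ECs. The part of such free RNA in the *Apln*-positive class, which is small in the WT mice, was not tested. Levels are UMIs of the gene in the sum over a class of a mouse, scaled to a total of 1000000 UMIs (CPM), and were not ranked between genes.

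With *Apln*-positive cells counted in their clusters, the angiogenic cluster held 39.9% of the ECs in KO1 and 20.8% in KO2, against 0.963% in WT1 and 0.596% in WT2. Arterial cells made up 6.90% and 8.47% of ECs in the KO mice and 21% and 15.5% in the WT mice. Venous cells made up 2.06% and 3.74% in the KO mice and 4.44% and 7.70% in the WT mice. In the sum over all ECs, a lower level per cell and fewer cells of a high class cannot be told apart. *Angpt2* itself was at 10.7 and 9.91 CPM in WT ECs, and at 64.8 (KO1) and 41.0 (KO2) in KO ECs. The 3′ reads lie outside the deleted exon, so this level checks neither the deletion nor the labels.

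**Figure D1:**
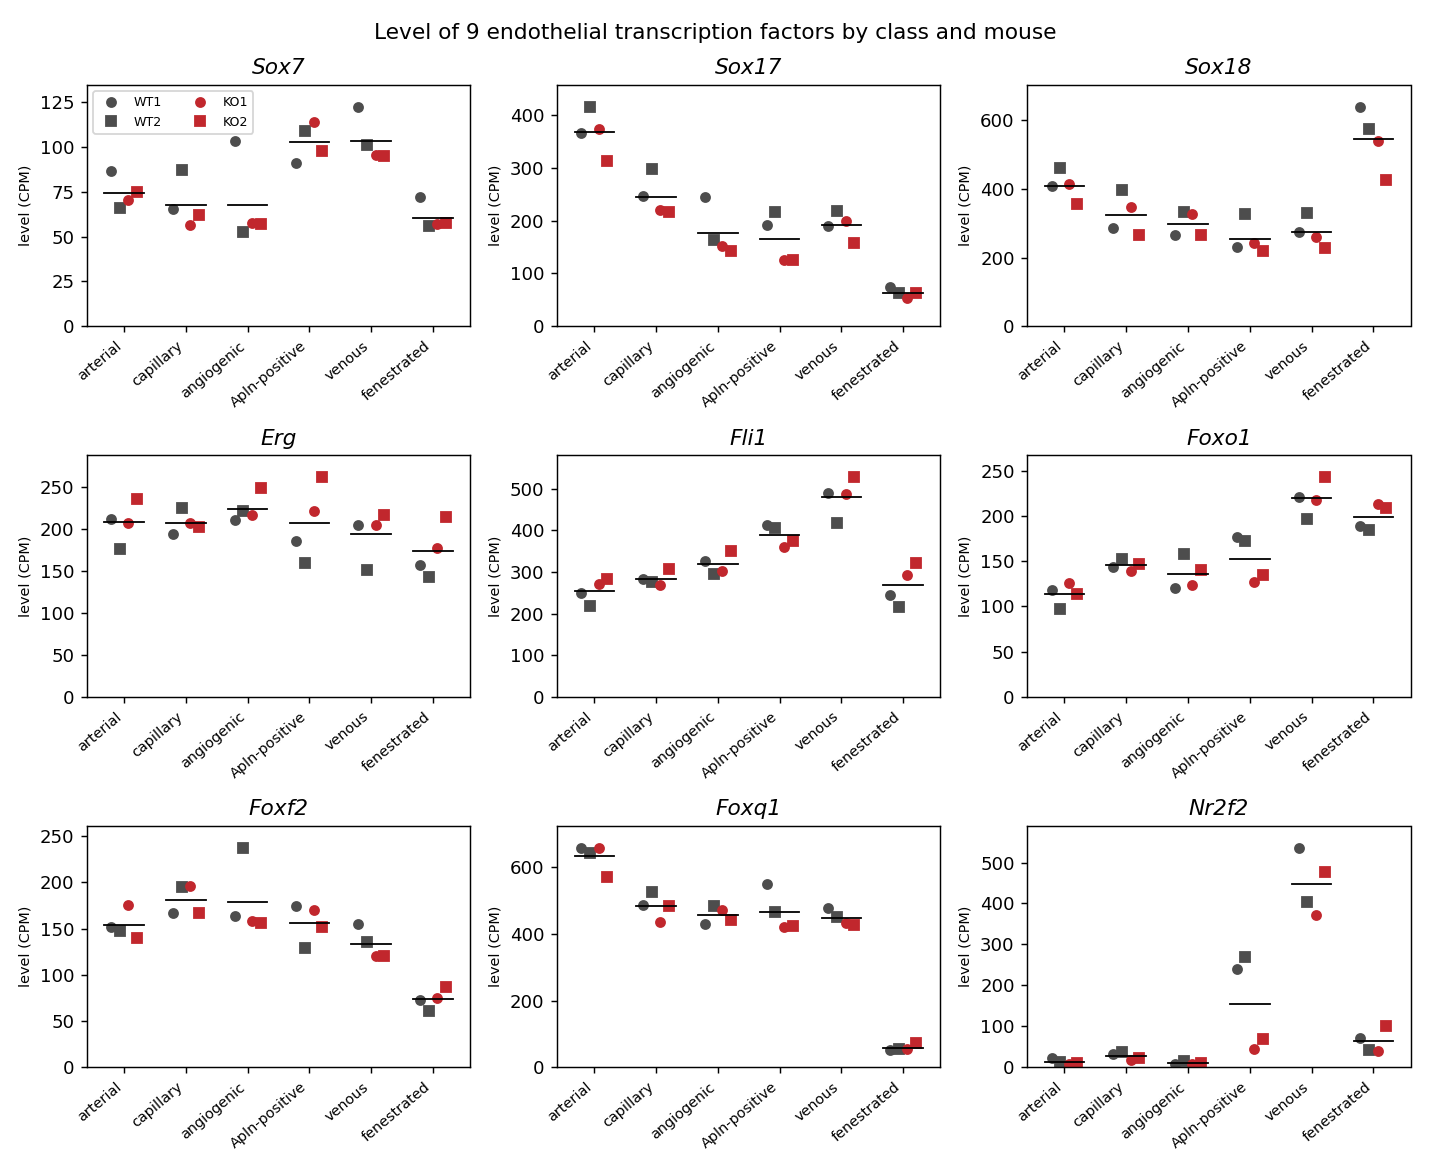
Level in CPM (linear axes from 0) of the 9 transcription factors in 6 endothelial classes. Each point is the sum over 1 mouse (WT in gray, KO in red, mouse 1 as circles, mouse 2 as squares), and the line is the mean of 4 mice. *Sox17* and *Foxq1* were highest in arterial cells, *Nr2f2* in venous cells and *Sox18* in fenestrated endothelium.

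Levels across zones are descriptions with no test, since the classes were built from the same cells. The sums of the angiogenic cluster held only 20 and 19 cells in WT1 and WT2, against 532 and 675 in KO1 and KO2. *Sox17* was highest in arterial ECs, at 366 and 415 CPM in the WT mice and 372 and 313 CPM in the KO mice. All of these lay above the highest value of any other named class. The mean arterial level of 367 ± 42 CPM (SD, n = 4) was 1.5 times that of capillary ECs (245 ± 38) and 5.82 times that of fenestrated endothelium (63.0 ± 9.0). *Sox18* had the opposite relation to fenestration, with 544 ± 89 CPM in fenestrated endothelium and 409 ± 43 CPM in arterial ECs. It was higher in the fenestrated sums of all 4 mice, although the ranges over mice overlapped. *Sox7* was highest in venous ECs (103 ± 13 CPM) and in *Apln*-positive ECs (103 ± 11 CPM), which did not differ beyond their spread, and lowest among the named classes in fenestrated endothelium (60.6 ± 7.5 CPM).

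The ETS pair differed in zonation. In the named classes *Erg* had mean levels from 173 ± 31 CPM in fenestrated endothelium to 224 ± 17 CPM in the angiogenic cluster, and the ranges over mice of neighboring classes in that order overlapped throughout. Among the named classes *Fli1* was highest in venous ECs, with 481 ± 45 CPM, followed by 388 ± 26 in *Apln*-positive ECs, 319 ± 25 in the angiogenic cluster, 284 ± 17 in capillary ECs and 256 ± 29 in arterial ECs. All 4 venous values lay above all values of these other classes, while capillary and arterial ECs overlapped. *Fli1* was also at 194 to 253 CPM in microglia-like cells (FLI1 is also a factor of blood-lineage cells), whereas *Erg* was at 14.3 to 25.1 CPM there.

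Of the forkhead genes, *Foxq1* and *Foxf2* were lower in fenestrated endothelium than in the other named classes. *Foxq1* was at 50.8, 56.1, 53.5 and 73.3 CPM in the fenestrated sums of WT1, WT2, KO1 and KO2. In the other named classes it was at 420 to 658 CPM in every mouse, and its arterial mean of 632 ± 42 CPM was 10.8 times the fenestrated mean. Microglia-like cells, which should lack the gene, held 32.6 to 104 CPM, so the fenestrated level lay within this background. *Foxf2* had a smaller step in the same direction, from 181 ± 17 CPM in capillary ECs and 133 ± 16 in venous ECs to 73.7 ± 10.5 in fenestrated endothelium, with no overlap over mice. *Foxo1* was ordered otherwise, with its highest levels in venous ECs (220 ± 19 CPM) and fenestrated endothelium (199 ± 15 CPM) and its lowest in arterial ECs (114 ± 12 CPM).

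*Nr2f2* had the largest ratio between named classes of the 9. It was at 536, 404, 371 and 477 CPM in the venous sums of WT1, WT2, KO1 and KO2. Their arterial sums held 23.2, 13.4, 8.82 and 11.4 CPM, which makes the ratio of venous to arterial means 31.5. The mean of the angiogenic cluster was lower still, at 10.8 ± 3.9 CPM, with a ratio of 41.5, although it overlapped with arterial ECs. Its WT sums held only 20 and 19 cells. The arterial level was near the background, since microglia-like cells, which should lack the gene, held 1.14 to 14.9 CPM. The second unnamed cluster, led by *F5*, *Ndnf* and *Flrt2*, had 140 ± 30 CPM of *Nr2f2*. Mural cells expressed it too, at 261 to 476 CPM in pericyte-like cells and 324.5 to 366 CPM in smooth muscle-like cells. *Nr2f2* lies on chromosome 7 (70351944 to 70366735, minus strand, GRCm38), with the antisense RNA gene *B130024G19Rik* overlapping it on the other strand.

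The RefSeq promoter window of *Nr2f2* (GRCm38.p6, chr7:70366697-70366996, minus strand, 250 bases before to 50 after a start) is shown because *Nr2f2* was the member with the largest difference between genotypes. Capitals mark the ETS core letters GGAA or their reverse complement TTCC, the short sequence that ERG and FLI1 recognize.
Nr2f2: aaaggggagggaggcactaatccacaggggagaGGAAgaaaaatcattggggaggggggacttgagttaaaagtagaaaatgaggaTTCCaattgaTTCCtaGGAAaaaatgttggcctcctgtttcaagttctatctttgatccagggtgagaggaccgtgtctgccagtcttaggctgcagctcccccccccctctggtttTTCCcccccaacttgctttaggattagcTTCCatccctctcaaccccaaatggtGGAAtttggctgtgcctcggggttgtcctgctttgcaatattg
The window held 7 such matches on either strand, against a median of 3 over all 32851 windows of this length, 96.0% of which held at least 1. The SOX core ACAAT and the FOX core TAAACA, searched on both strands, were not in this window, and 31.0% and 13.4% of all windows held them. Windows were at hand for 4 of the 9 genes. Those of *Foxo1* and *Foxf2* held 2 ETS core matches each, and the 3 windows of *Erg* held 1, 4 and 2.

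The comparison of genotypes asks whether loss of ANGPT2 changed the level of these factors. In all ECs, 2 of the 9 genes passed edgeR's quasi-likelihood test (Benjamini-Hochberg adjusted p under 0.05), both lower in *Angpt2*-KO, where 5.94% of 13521 genes passed. In *Apln*-positive ECs the same 2 passed, also lower, where 9.85% of 10079 genes passed. No member passed in arterial ECs (0.397% of genes passed), capillary ECs (1.8%), venous ECs (0.0492%) or fenestrated endothelium (0%), by edgeR or by DESeq2. At an unadjusted p under 0.05 there were 1, 3, 0 and 1 members in these 4 classes, against 9.07%, 10.6%, 8.23% and 3.95% of all genes tested there (386 genes in fenestrated endothelium, where DESeq2 called 1 gene). Both KO mice lay on one side of both WT mice for 7 members in all ECs (50.7% of all genes did so), 2 in arterial (40.4%), 4 in capillary (33.5%), 4 in venous (39.6%), 6 in *Apln*-positive (51.7%) and 6 in fenestrated cells (34.1%). The median log2 fold change of the 9 genes was −0.19 in all ECs, −0.12 in arterial, −0.12 in capillary, −0.21 in venous, −0.27 in *Apln*-positive ECs and 0.175 in fenestrated endothelium, while that of all genes tested lay between −0.019 and −0.005. Each class had 2 mice per genotype, and each mouse was 1 library.

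**Figure D2:**
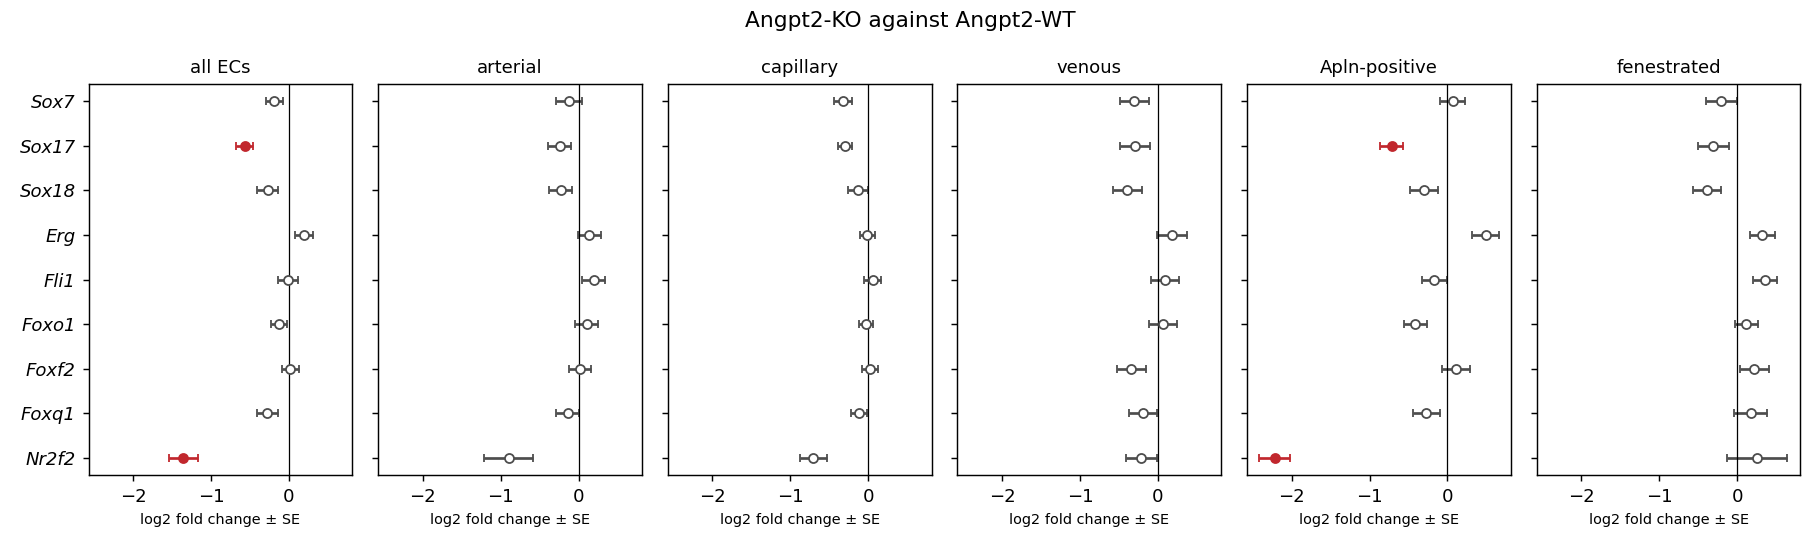
Log2 fold change of *Angpt2*-KO against *Angpt2*-WT (2 mice each) for the 9 genes, with its SE, in 6 groups of cells. Red filled points passed the test at an adjusted p under 0.05, and open gray points did not. Only *Sox17* and *Nr2f2* passed, in all ECs and in *Apln*-positive ECs.

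*Nr2f2* differed most. In all ECs its level was 141 and 159 CPM in the WT mice and 47.0 and 71.6 CPM in the KO mice, so both KO mice lay below both WT mice. It fell by 1.35 on the log2 scale (SE 0.18, adjusted p = 0.00539), which is 2.56-fold. Outside the angiogenic cluster the levels were 142, 160, 87.6 and 96.8 CPM in the same order, a log2 fold change of −0.73 (adjusted p = 0.0174, an alternative chosen after the data were seen). The unnamed *F5* cluster made up 24.3% and 25.3% of all ECs in WT1 and WT2 and 14.9% and 12% in KO1 and KO2. The share of venous cells differed too, so level per cell and make-up cannot be told apart in this sum either. In *Apln*-positive ECs *Nr2f2* was at 240 and 268 CPM in the WT mice against 43.7 and 69.6 CPM in the KO mice, and it was 4.66-fold lower in *Angpt2*-KO (log2 fold change −2.22, SE 0.20, adjusted p = 3.44e-05). Of these cells, 76.7% and 61.0% fell in the angiogenic cluster in KO1 and KO2, and 28.9% and 14.1% in WT1 and WT2. The unnamed *F5* cluster, where *Nr2f2* was also high, held 42.1% and 32.8% of the *Apln*-positive cells in WT1 and WT2 and 12% in each KO mouse, and the venous cluster held 10.5% and 32.8% against 1.79% and 4.22%. A lower level per cell and this difference in make-up cannot be told apart in these sums. The 8 pericyte markers together were at 252, 137, 119 and 96.5 CPM in *Apln*-positive ECs of WT1, WT2, KO1 and KO2. *Nr2f2* was still lower when ECs with UMIs of other cells were left out, as in all 10 alternatives run (log2 fold changes from −2.94 to −1.88). Here and below, such ECs were set by a limit of 3 UMIs of markers of other cells. ECs below that limit stayed in, and the part of pericyte RNA was not tested.

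Within zones the *Nr2f2* difference was not called. In arterial ECs, where both KO mice lay below both WT mice, it was −0.90 in log2 (SE 0.32, adjusted p = 0.397), and it passed with zones set by marker scores per cell (−1.68, adjusted p = 0.003). In capillary ECs it was at 33.5, 36.6, 17.6 and 23.9 CPM in WT1, WT2, KO1 and KO2, without overlap, a difference of −0.70 in log2 (SE 0.17, adjusted p = 0.0515), which passed in 7 of 15 alternatives. Microglia-like cells had 11.5 and 14.9 CPM of *Nr2f2* in the WT mice and 1.14 and 7.91 CPM in the KO mice, so the background differed the same way, and its part in the capillary difference was not tested. In venous ECs, where the gene is highest, the genotypes differed by −0.21 in log2 (SE 0.20, adjusted p = 0.808), and the values of the genotypes overlapped. These sums held 36 cells in KO1, and a median of 4680.5 UMIs per cell in KO2 against 14519 to 18863 in the others. The venous sums differed in pericyte RNA: the 8 pericyte markers together were at 419, 276, 38.3 and 789 CPM in WT1, WT2, KO1 and KO2, and the part of this in the *Nr2f2* values, which pericytes also express, was not tested. In fenestrated endothelium *Nr2f2* was at 71.8, 43.2, 40.2 and 101 CPM (log2 fold change 0.26, SE 0.38, adjusted p = 0.975), and the pericyte markers were at 1333, 757, 938 and 2396 CPM in the same order, highest in KO2 for both, and the part of this was not tested.

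*Sox17* (chromosome 1, 4490931 to 4497354, minus strand, GRCm38, with *Gm37587* on the other strand) was the other member to pass. In all ECs its level was 260 and 281 CPM in the WT mice and 184.5 and 184.9 CPM in the KO mice, and it was 1.48-fold lower in *Angpt2*-KO (log2 fold change −0.57, SE 0.11, adjusted p = 0.0228). This call did not hold without WT2, KO1 or KO2 (adjusted p = 0.0581, 0.188 and 0.156), although the log2 fold changes of −0.53, −0.56 and −0.54 were close to that with all mice. Without the angiogenic cluster it did not hold either, at −0.30 (adjusted p = 0.345). In *Apln*-positive ECs *Sox17* was at 192, 217, 126 and 126 CPM, 1.64-fold lower in the KO mice (log2 fold change −0.71, SE 0.15, adjusted p = 0.00773), and this call too was lost without WT2, KO1 or KO2 (−0.63, −0.71 and −0.69, adjusted p = 0.0914, 0.0959 and 0.0518). It was also lost without ECs that held UMIs of other cells (−0.61, adjusted p = 0.0634) and with a limit of 3 *Apln* UMIs (−0.68, adjusted p = 0.162), so that it held in 5 of 10 alternatives. Mean *Sox17* was 234 CPM in the unnamed *F5* cluster, 191 in venous ECs and 176 in the angiogenic cluster. As for *Nr2f2*, a lower level per cell and the different make-up of the *Apln*-positive cells cannot be told apart. The log2 difference was −0.24 within arterial ECs (SE 0.15, adjusted p = 0.687), −0.30 in capillary ECs (SE 0.09, adjusted p = 0.167), −0.29 in venous ECs (SE 0.19, adjusted p = 0.725) and −0.30 in fenestrated endothelium (SE 0.20, adjusted p = 0.966). The sign was negative in all 6 groups. *Sox17* UMIs in microglia-like cells were at 35.6 and 47.4 CPM in the WT mice and 15.5 and 12.9 CPM in the KO mice, and their part in these differences was not tested.

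The other SOXF members did not pass in any class. *Sox7* had log2 fold changes from −0.32 (capillary, adjusted p = 0.264) to 0.07 (*Apln*-positive, adjusted p = 0.873). *Sox18* was negative in all 6 groups, from −0.13 in capillary ECs (adjusted p = 0.817) to −0.39 in venous ECs (adjusted p = 0.613) and −0.39 in fenestrated endothelium (adjusted p = 0.966). In the fenestrated sums *Sox18* was at 638 and 574 CPM in the WT mice and 537 and 426 CPM in the KO mice, without overlap.

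*Erg* and *Fli1*, the ETS pair, did not pass in any class. In all ECs *Erg* was at 194.5 and 170 CPM in the WT mice and 210.5 and 212 CPM in the KO mice (log2 fold change 0.19, SE 0.12, adjusted p = 0.443). Its largest difference was in *Apln*-positive ECs, with 185, 160, 222 and 262 CPM (log2 fold change 0.49, SE 0.17, adjusted p = 0.0986). *Fli1* in all ECs was at 348, 340, 336 and 354 CPM, and its log2 fold change, −0.01 (SE 0.13, adjusted p = 0.974), was the smallest in size of the 9. Genes annotated inside *Fli1* on its own strand, *Gm22060*, *Gm37082*, *Gm37474*, *Gm38292* and *Gm38346*, could have shared reads with it.

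The forkhead genes did not pass either. *Foxo1* in all ECs was at 146, 144, 130 and 139 CPM (log2 fold change −0.13, SE 0.10, adjusted p = 0.549), and in *Apln*-positive ECs at 177, 172, 128 and 135 CPM (−0.41, SE 0.15, adjusted p = 0.105). *Foxf2* differed by 0.02 in log2 in all ECs (SE 0.11, adjusted p = 0.949) and −0.34 in venous ECs (SE 0.18, adjusted p = 0.650). *Foxq1* in all ECs was at 589, 574, 481 and 491 CPM (−0.28, SE 0.13, adjusted p = 0.314). *Foxq1* (31556134 to 31560976) and *Foxf2* (31625816 to 31631403) are neighbors on chromosome 13, 64839 bases apart and on the same strand.

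Whether the genotype difference itself differed between zones was tested with an interaction term, and no member passed for arterial (0.0259% of 11590 genes passed), venous (0.0863%) or fenestrated cells (0.155%) against capillary cells by edgeR or DESeq2. At an unadjusted p under 0.05 there were 0, 1 and 2 members, against 5.47%, 8.58% and 6.81% of all genes. The largest of these was *Nr2f2* in fenestrated endothelium, whose genotype difference in log2 lay 1.01 above that of capillary ECs (SE 0.28, adjusted p = 0.197). It passed in 3 of 12 alternatives.

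Within the *Angpt2*-KO mice, *Apln*-positive ECs (391 in KO1, 308 in KO2) were compared with the *Apln*-negative ECs of the same mouse, and 5 of the 9 genes passed, 2 higher and 3 lower, where 26% of 12311 genes passed. The mouse was a term of the model, which left 1 residual degree of freedom per gene, so the adjusted p values lean on the spread shared over genes. *Sox7* (chromosome 14, 63943673 to 63950732, plus strand) was higher in *Apln*-positive ECs, at 114 against 61.9 CPM in KO1 and 97.6 against 66.2 CPM in KO2 (log2 fold change 0.76, SE 0.08, adjusted p = 1.59e-19). *Sox17* was lower, at 126 against 212 CPM in KO1 and 126 against 194 CPM in KO2 (−0.69, SE 0.08, adjusted p = 4.24e-17). Thus 2 factors of one group differed in opposite directions between the same sums. The third, *Sox18*, was at 241 against 313 CPM and 218 against 252 CPM (−0.29, adjusted p = 0.000958). *Apln*-positive cells lay mostly in the angiogenic cluster (76.7% in KO1 and 61% in KO2). The *Apln*-negative sums also held arterial ECs, where *Sox17* was highest, and the part of this make-up was not tested. *Foxq1* was at 420 against 510 CPM and 423 against 501 CPM (−0.25, adjusted p = 0.00623), and *Erg* at 222 against 205 CPM and 262 against 205 CPM (0.23, adjusted p = 0.00906).

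The calls of *Sox7* and *Sox17* held in all 6 alternatives run, with adjusted p values up to 0.00813 and 0.00429, whereas those of *Sox18*, *Foxq1* and *Erg* were lost with DESeq2 (adjusted p = 0.0672, 0.0512 and 0.210) and without the mouse term (adjusted p = 0.199, 0.116 and 0.179). *Fli1*, *Foxo1* and *Foxf2* had log2 fold changes of 0.13, −0.03 and 0.06 and did not pass. *Apln*-positive cells were deeper than the others, with medians of 12625 against 6959 UMIs in KO1 and 5881 against 3794 in KO2.

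**Figure D3:**
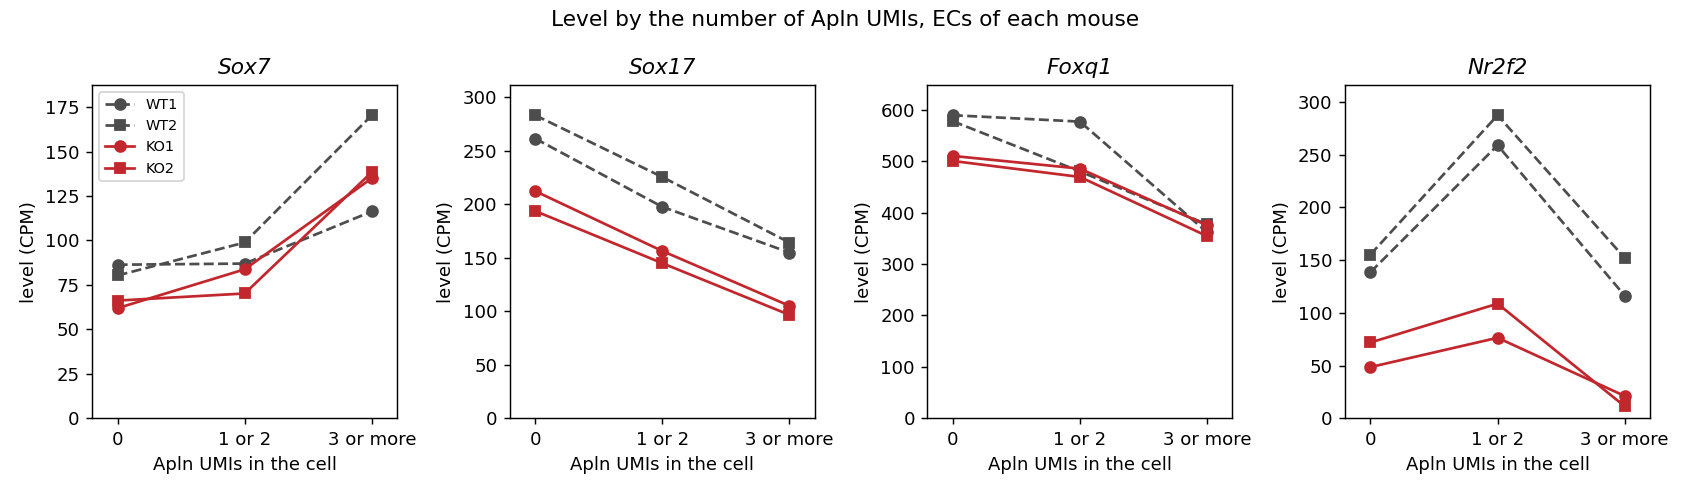
Level in CPM (linear axes from 0) of 4 genes in ECs with 0, 1 or 2, and 3 or more *Apln* UMIs, with 1 line per mouse (KO solid red, WT dashed gray). *Sox7* was highest and *Sox17* lowest at 3 or more UMIs in all 4 mice, while *Nr2f2* was higher at 1 or 2 UMIs and lower again at 3 or more.

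Split by the number of *Apln* UMIs, *Sox7* in KO1 was at 61.9, 83.8 and 135 CPM with 0, 1 or 2, and 3 or more UMIs, and in KO2 at 66.2, 70.2 and 138 CPM. *Sox17* was at 212, 156 and 105 CPM in KO1 and 194, 145 and 96.7 CPM in KO2. WT mice showed the same order for both genes, though only 6 (WT1) and 10 (WT2) of their ECs had 3 or more *Apln* UMIs. The values of *Nr2f2* were highest at 1 or 2 UMIs, an order that was not tested, at 48.5, 76.4 and 21.1 CPM in KO1 and 71.9, 109 and 11.3 CPM in KO2. With 1 *Apln* UMI as the limit it did not pass (log2 fold change −0.09, adjusted p = 0.495), and with 3 it fell by 1.59 (adjusted p = 3.6e-26). Without ECs that held UMIs of other cells it passed too (−0.97, adjusted p = 6.81e-07). Pericyte-like cells, which express *Nr2f2*, held 571 and 291 CPM of *Apln* in KO1 and KO2. In the WT mice *Nr2f2* was at 240 against 139 CPM and 268 against 155 CPM in *Apln*-positive against *Apln*-negative ECs. *Foxq1* had its lowest level in the last step in all 4 mice, at 510, 486 and 375 CPM in KO1 and 501, 470 and 354 CPM in KO2.

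The angiogenic cluster, left without its *Apln*-positive cells, was compared with the capillary cluster within the KO mice, and 4 of the 9 genes passed, 1 higher and 3 lower, where 46.5% of 10866 genes passed. Angiogenic cells were deeper, with medians of 9040 against 4311.5 UMIs in KO1 and 5661 against 2742.5 in KO2, and the part of this depth and of the genes that led the capillary cluster was not tested. *Nr2f2* was at 6.99 against 17.6 CPM in KO1 and 11.7 against 23.9 CPM in KO2 (log2 fold change −1.15, SE 0.21, adjusted p = 4.93e-07). The angiogenic levels lay within the range of microglia-like cells over all mice, WT included, but above the microglia-like level of the same mouse in KO1 and in KO2. With zones set by marker scores per cell the value was 0.25 and not called (adjusted p = 0.366). *Sox17* was at 151 against 219 CPM and 143 against 216 CPM (−0.57, SE 0.08, adjusted p = 2.39e-11), and passed in all 10 alternatives. *Foxf2* (−0.20, adjusted p = 0.0300) and *Erg* (0.18, adjusted p = 0.0454) passed in 4 and 3 of 10 alternatives. *Sox7*, at 57.6 against 56.6 CPM and 56.8 against 62.3 CPM, did not pass (−0.06, adjusted p = 0.667), but with the *Apln*-positive cells kept in the clusters it was higher in the angiogenic one (0.37, adjusted p = 0.00217).

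**Figure D4:**
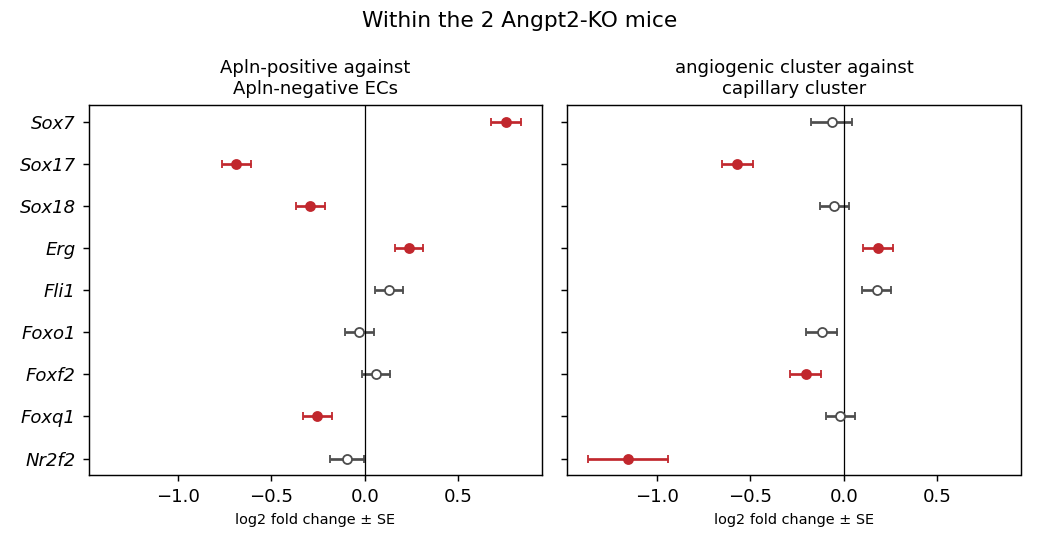
Log2 fold change with its SE, within KO1 and KO2, of *Apln*-positive against *Apln*-negative ECs (left) and of the angiogenic against the capillary cluster (right). Red filled points passed at an adjusted p under 0.05. *Sox17* passed in both comparisons (−0.69 and −0.57), *Sox7* in the left one (0.76) and *Nr2f2* in the right one (−1.15).

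Genes that these factors are known to regulate, or that are used beside them, were counted in lists. Of all genes tested between genotypes, 5.94% passed in all ECs, 9.85% in *Apln*-positive, 1.8% in capillary and 0.397% in arterial ECs. Within the KO mice, 26% passed for *Apln*-positive against *Apln*-negative ECs and 46.5% for the angiogenic against the capillary cluster. The make-up of *Apln*-positive ECs differed between genotypes, and its part in the genes below was not tested. Of 8 arterial genes linked to the SOXF group, 2 passed in all ECs, both higher in *Angpt2*-KO: *Cxcr4*, a chemokine receptor of tip cells (log2 fold change 3.79, adjusted p = 0.0015), and *Notch4*, an endothelial Notch receptor (0.58, adjusted p = 0.0176). Their median was 0.33 (−0.02 over all genes). In *Apln*-positive ECs 4 of 6 tested were higher and none lower: *Cxcr4* (4.81), *Dll4*, a Notch ligand of tip cells and arteries (1.45), *Unc5b* (1.44) and *Notch4* (1.07). Within the KO mice, 3 of these 8 were higher in *Apln*-positive than in *Apln*-negative ECs (*Cxcr4* 3.17, *Dll4* 0.40, *Notch4* 0.22) and 4 lower, among them the arterial gap junction genes *Gja5* (−2.51) and *Gja4* (−2.05), *Efnb2*, an arterial ephrin (−1.08), and *Unc5b* (−0.60). In the angiogenic cluster 6 of 7 tested were lower than in the capillary cluster and none higher, with *Gja4* (−1.17), *Cxcr4* (−0.95), *Unc5b* (−0.82), *Efnb2* (−0.66) and *Notch4* (−0.36) first by size. *Unc5b* was itself among the leading genes of the capillary cluster, and the part of arterial-side cells in that cluster was not tested.

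Of 12 pan-endothelial genes linked to ERG and FLI1, *Eng*, a TGF-beta coreceptor, and *Robo4*, a guidance receptor, were higher in *Angpt2*-KO in all ECs (0.84 and 0.82), in capillary ECs (0.47 and 0.48) and in *Apln*-positive ECs (1.02 and 0.96), where *Tek* was lower (−0.80). The other 10 did not pass in all ECs, and the median over the list was −0.002. In *Apln*-positive ECs of the KO mice 3 were higher than in *Apln*-negative ones (*Robo4* 0.41, *Eng* 0.35, *Kdr* 0.34) and 2 lower (*Tek* −0.86, *Flt1* −0.52). The angiogenic cluster had 6 higher than the capillary cluster, led by *Cldn5*, a tight junction gene (0.55), *Eng* (0.49), *Icam2* (0.34), *Egfl7* (0.28) and *Kdr* (0.25), and 3 lower (*Tek* −0.81, *Tie1* −0.39 and *Flt1* −0.26).

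Of 9 genes linked to FOXO1, none of the 8 tested passed between genotypes in all ECs, and *Sesn3*, a stress-response gene, was the only one to pass in *Apln*-positive ECs (1.00, adjusted p = 0.0180). Within the KO mice, *Sesn3* (0.80) and *Cited2* (0.24) were higher and *Txnip* (−0.42) and *Cdkn1b* (−0.28) lower in *Apln*-positive than in *Apln*-negative ECs. The angiogenic cluster had *Cited2* (0.65) and *Sesn3* (0.43) higher, and *Pdk4* (−1.08), *Txnip* (−0.23) and *Cdkn1b* (−0.21) lower, than the capillary cluster. Of 5 venous genes linked to NR2F2, *Ephb4*, the venous receptor of EFNB2, was lower in *Angpt2*-KO in all ECs (−0.51, adjusted p = 0.0220) and in *Apln*-positive ECs (−0.94), where *Flt4* was higher (0.70). Within the KO mice, *Nrp2* (0.84), *Aplnr* (0.84) and *Flt4* (0.34) were higher and *Ephb4* lower (−0.41) in *Apln*-positive ECs. In the angiogenic cluster *Nrp2* (0.72) and *Emcn* (0.55) were higher and *Ephb4* lower (−0.37) than in the capillary cluster.

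Of 40 other endothelial transcription factors, 37 were tested in all ECs, and 3 were higher and 1 lower in *Angpt2*-KO. These were *Meox1*, a homeobox factor (3.23, adjusted p = 0.0015), *Prdm1* (2.18, adjusted p = 0.00273), *Sox4* (0.82, adjusted p = 0.0475) and *Lyl1* (−1.01, adjusted p = 0.0125). *Meox1* was also higher within arterial (1.67) and capillary ECs (1.61), and *Prdm1* (0.93) and *Sox4* (0.61) within capillary ECs. In *Apln*-positive ECs 7 of 33 were higher in *Angpt2*-KO, led by *Prdm1* (3.17), *Meox1* (2.28), *Hey1* (1.61), *Ets2* (1.05) and *Sox4* (0.90), and 5 lower (*Lyl1* −1.88, *Klf2* −0.84, *Ppard* −0.69, *Foxp1* −0.68, *Foxc1* −0.61).

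For *Apln*-positive against *Apln*-negative ECs within the KO mice, 26% of all genes passed. Of these factors, 8 of 35 were higher in *Apln*-positive ECs, led by *Meox1* (1.47), *Prdm1* (1.19), *Sox4* (1.07), *Ets2* (0.76) and *Bcl6b* (0.65). Another 11 were lower, led by *Hey1*, a Notch target (−0.83), *Tbx3* (−0.59), *Gata2* (−0.42), and the shear stress factors *Klf2* (−0.41) and *Klf4* (−0.40). For the angiogenic against the capillary cluster, 46.5% of all genes passed. The angiogenic cluster had 9 of 33 factors higher, led by *Meox1* (1.53), *Id3* (1.03), *Sox4* (0.79), *Prdm1* (0.55) and *Hes1* (0.49), and 9 lower, among them *Foxo3* (−0.64), *Lyl1* (−0.63), *Tbx3* (−0.51) and *Gata2* (−0.45). None of the genes in these 5 lists passed in venous ECs or in fenestrated endothelium. Only 5 of 10164 genes passed in venous ECs and 0 of 9762 in fenestrated endothelium, so this is not particular to the lists.

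Each member was also matched with the 3 genes whose log2(CPM + 1) followed it most closely over 32 sums, 8 endothelial classes of 4 mice, which share libraries. *Foxq1* was followed most closely by *Tpd52*, *Lsr*, the gene of a tricellular junction receptor, and *Maoa* (Pearson's r from 0.971 to 0.980). *Sox17* was followed by *Nebl*, *Gpr160* and *Cyth3* (0.926 to 0.953), *Foxf2* by *Tgfa*, *Mxi1* and *Ifnar1* (0.908 to 0.934), and *Nr2f2* by genes that included *Gm5127* (0.924) and *Il1r1* (0.917), the latter among the venous markers that named the clusters. *Fli1* was followed by *Nckap5*, *Actn1* and *Serpinb9* (0.880 to 0.907), and *Foxo1* by *Mbnl2*, *Sema6b* and *Atp2b1* (0.880 to 0.908). *Sox18* was followed by *Plscr2*, *Cdc42ep1* and *Mapk3* (0.839 to 0.842), *Erg* by *Taf1*, *Ctnna1* and *Erc1* (0.805 to 0.826), and *Sox7* by *Tshz1*, *Tnfaip8l1* and *Atp1b3* (0.757 to 0.812). These are correlations over classes and mice together, given as descriptions.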

How the data were processed

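Single-cell libraries from 4 mice were analysed. Per the labels, the authors aligned the reads to mm10 with Cell Ranger (6.1.2 in the processing notes, 6.1.1 in the matrix header) and deposited UMI counts per gene and barcode, which were used as deposited. Barcodes over 500 genes and below 10% mitochondrial UMIs were clustered with Seurat 5.3.0 (2000 variable genes, 50 components, resolution 0.2 for all cells and 0.4 for ECs), leaving out the 9 members and the other listed genes (83 in all). No doublet caller was run. Counts were summed per mouse and class and tested with the quasi-likelihood test of edgeR 4.0.16 (TMM, filterByExpr, Benjamini-Hochberg adjustment over all genes), with DESeq2 1.42.0 as an alternative. Levels are CPM of these sums. The tests were run on simulated counts first. Named were all 9 members, up to 5 listed genes by size in each direction, and 3 genes by likeness (mean of at least 10 CPM), of which some are not reported here. Members and lists were chosen with earlier results of these data known. With 2 mice per genotype and 1 library per mouse, p-values of the genotype comparisons cover the spread between these mice. Those of tests with a mouse term (within the KO mice, and the interactions) cover only the spread left after differences between mice were taken out.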

Additional observations from a re-analysis of the deposited data

Results flagged for a closer look

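For 3 members, both KO mice lay above both WT mice in one class and below them in another, and the difference between the classes was not tested for these pairs. *Fli1* had log2 fold changes of 0.19 in arterial ECs and 0.36 in fenestrated endothelium, against −0.17 in *Apln*-positive ECs. *Foxo1* had −0.41 in *Apln*-positive ECs and 0.12 in fenestrated endothelium. *Foxf2* had −0.34 in venous ECs and 0.22 in fenestrated endothelium. None of these 7 values passed the test within its class. Between 33.5% and 51.7% of the genes tested in a class had mice of the 2 genotypes that did not overlap, in either direction. The share of all genes that did so in opposite directions in different classes was not computed, so the count of 3 members has no background to be set against.

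For a pair of other genes, an interaction test in edgeR found a genotype difference that differed between fenestrated endothelium and capillary ECs. The difference of *Meox1* in fenestrated endothelium was −1.67 relative to that in capillary ECs on the log2 scale (adjusted p = 4.08e-05), and that of *Angpt2* was −2.73 (adjusted p = 4.08e-05). *Angpt2* transcripts were at 79.8 and 57.2 CPM in fenestrated endothelium of WT1 and WT2 and at 16.5 and 19.9 CPM in KO1 and KO2, whereas in capillary ECs they were at 18.5, 13.7, 31.0 and 25.2 CPM. Within neither class alone did the genotype difference of *Angpt2* pass in edgeR. It was −1.95 in log2 in fenestrated endothelium (adjusted p = 0.138) and 0.79 in capillary ECs (adjusted p = 0.0832).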

How the results depend on the processing

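The sign and call of *Nr2f2* held in all ECs and in *Apln*-positive ECs in all 10 alternatives each, and those of *Sox7* and *Sox17* between *Apln*-positive and *Apln*-negative ECs in all 6. The counts of genes that passed moved more, and the cause was not tested. With DESeq2 they were 73 in capillary, 11 in venous, 563 in *Apln*-positive and 1 in fenestrated cells, 1070 for *Apln*-positive against *Apln*-negative ECs, 1828 for angiogenic against capillary ECs, and 1 and 9 for the arterial and fenestrated interactions. Without a filter on low counts they were 1596 in all ECs, 178 in arterial, 350 in capillary, 99 in venous and 49 in fenestrated cells, and 25, 30 and 72 for the arterial, venous and fenestrated interactions. RLE normalization gave 6 for the venous interaction. Leaving out 1 mouse at a time gave 236 to 1321 in all ECs, 50 to 122 in arterial, 15 to 182 in capillary, 47 to 576 in venous, 306 to 1103 in *Apln*-positive and 2 to 76 in fenestrated cells, and 3 to 9, 3 to 12 and 17 to 47 for the arterial, venous and fenestrated interactions. A genotype left with 1 mouse was assumed to vary like the other.

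With the listed genes kept in the clustering, 8 passed in venous cells and 6 for the venous interaction, and at resolution 0.6 there were 21 in venous cells. Zones from marker scores per cell gave 89 in arterial, 468 in capillary and 136 in venous cells, 1053 for angiogenic against capillary ECs, and 21, 51 and 142 for the 3 interactions. With these zones *Nr2f2* and *Erg* turned to 0.249 and −0.027 in angiogenic against capillary ECs. With *Apln*-positive cells kept in their zones, 70 passed in arterial and 36 in venous cells and 1 for the arterial interaction, and *Sox7* turned to 0.368 in angiogenic against capillary ECs. Counting the angiogenic cluster as capillary gave 2977 in capillary cells. A limit of 3 *Apln* UMIs gave 393 in *Apln*-positive cells. Without ECs that held UMIs of other cells there were 396 in *Apln*-positive and 4 in fenestrated cells, 2022 for *Apln*-positive against *Apln*-negative ECs, and 11 and 3 for the arterial and venous interactions. Without the mouse term, 1192 passed for *Apln*-positive against *Apln*-negative ECs. Without the angiogenic cluster, chosen after seeing the data, 174 passed in all ECs.

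The mice were not treated as pairs, since no label says that a replicate number marks a shared litter or day, but number 1 was female and number 2 male in both genotypes, and mice of a number may have shared an experiment, so that sex and experiment cannot be told apart. The difference between mouse 1 and mouse 2 correlated at Pearson's r = −0.133 (Spearman's rho −0.138) between genotypes over 13515 genes, which are not independent. With the replicate block, 82 genes passed in arterial, 17 in venous and 21 in fenestrated cells, and among members the block changed the call of *Nr2f2* in capillary ECs (−0.71, adjusted p = 0.0496).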
